A study of Homo sapiens with 8 samples.

Results

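The 38 genes described here were close to silent in LN229-TAZ(4SA) glioblastoma cells kept in regular culture for 7 h, and stood at least 8-fold higher in cells kept for 7 h without glucose and with AF. They were chosen by measured values. The mean level in the 7 h regular libraries was below 1 CPM, the read count scaled to a common library size, with the small constant (prior) of 0.0522 CPM that the deposited values include. The mean log2 level in treated cells also lay at least 3 above that of regular cells. Of 13036 listed genes, 425 met the first condition and 44 met both, of which 6 were left out by name (HSPA7, DUSP2, NR4A3, RBFOX3, and homeobox, solute carrier, intergenic, antisense, EGR and KLF symbols), leaving 38. Because the 7 h difference and the 7 h regular level chose the genes, they are given below as a description with no test. Only the comparison at 1 h, made in libraries that the choice did not use, was tested. Positions are on GRCh38, from the RefSeq gene table.

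Bulk RNA was sequenced in 8 libraries, 2 for each of 4 groups. Treated cells received AF at 1 µM, named in the labels by these letters alone, in glucose-deprived culture for 1 h or 7 h. Regular cells were kept in standard medium with serum and no AF for 1 h or 7 h. All groups are the same line, LN229, an established human glioblastoma line that, by its name, carries TAZ(4SA), a form of the Hippo pathway coactivator encoded by WWTR1, so the regular cells carry it too. AF and the loss of glucose were always applied together and cannot be told apart. The labels do not say whether the 2 libraries of a group came from separate cultures, so the spread behind each p-value may be technical. In bulk RNA, fewer cells expressing a gene and less of its RNA per cell cannot be told apart. The labels number the libraries of a group but the columns of the table do not, so they are named A and B, and every pair of values below gives A and then B.

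The libraries held 27731776 to 45811965 reads in listed genes, so 1 read was worth 0.0209 to 0.0430 CPM, and the 3 reads that a count of 0 leaves possible were worth 0.0626 to 0.129 CPM. Of 9 glioma cell markers 8 were in the table, which does not by itself identify the line or its TAZ(4SA) form. WWTR1 had 298 and 309 CPM in treated cells at 7 h against 243 and 252 CPM in regular cells. The summed level of the markers was 16317 and 15841 CPM in treated cells at 7 h and 18452 and 17797 CPM in regular cells at 7 h. Of the 8, 6 were lower in treated cells at 7 h and 1 was higher (limma, adjusted p under 0.05), against 41.1% and 40.5% of all tested genes. SOX2, among the lower, had 22.5 and 19.2 CPM in treated cells at 7 h against 119.7 and 129.98 CPM in regular cells. Heat shock genes moved beside the 38: 22 of 23 listed ones were higher in treated cells at 7 h and 19 of 23 at 1 h (limma, adjusted p under 0.05). Of all tested genes 40.5% were higher at 7 h and 17.7% at 1 h. The heat shock genes summed to 117580 and 115855 CPM in treated cells at 7 h against 10366 and 10169 CPM in regular cells at 7 h. The part of the heat shock response in the levels of the 38 genes was not tested.

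Most genes that a differentiated cell type does not use are kept off by closed chromatin, by Polycomb proteins or by the absence of their activators, and their RNA is then found at a few reads per library. Stress signals acting through heat shock factors, the antioxidant factor NRF2 or AP-1 and ATF factors can raise RNA at such loci. In heat- and salt-stressed cells transcription is also known to run past gene ends. The 38 genes belong to several unrelated families, and they were sorted by hand, from known function, into 7 classes. A class holds 3 to 8 genes, and none was tested as a set. The 1 h counts by class below stand beside 17.7% of all tested genes higher at 1 h and 20.7% lower.

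In the 7 h treated libraries the mean level of the 38 genes lay between 0.922 and 26.4 CPM, with a median of 5.54 CPM, and 20 of them reached 5 CPM. Their median was 0.317 CPM in regular cells at 7 h, where the 2 libraries together held between 3 and 81 reads per gene (median 29.5). The 7 h log2 difference ranged from 3.01 to 7.94 with a median of 3.76, was at least 5 for 5 genes and was below 4 for 27. All 38 were called higher at 7 h, as the choice of genes fixes, and 40.5% of all tested genes were called higher and 41.1% lower there. In 33 of the 38 both treated libraries at 7 h lay above all 6 other libraries, the exceptions being ANKRD1, CEBPD, PCGF2, PARN and SMN1. That count, too, rests on the 7 h values that chose the genes. It is a description, and the share over all genes is not given here.

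At 1 h the medians of the 38 genes were 1.04 CPM in treated cells and 0.865 CPM in regular cells. 15 of the 38 genes (39.5%) were higher in treated cells at 1 h, against 17.7% of all tested genes, and 5 (13.2%) were lower, against 20.7% (limma on the whole table, Benjamini-Hochberg adjusted p under 0.05). The other 18 did not pass the test. The median 1 h log2 fold change was 0.35 over the 38 genes and 0.01 over all 13028 genes tested. Of the 38, 15 reached the 1 CPM in 2 libraries needed for the test only through the 7 h treated libraries. With no such filter the test grew only from 13028 to 13036 genes, and the genes called higher stayed the same. That check therefore says little about the filter. With 1 CPM required in 4 libraries 22 of the 38 were left, of which 8 (36.4%) were higher, against 17.8% of all tested genes, and 4 (18.2%) were lower, against 20.9%. All 8 lay under 1 CPM in every regular library, so they passed only with both treated libraries at 1 h. The stricter filter thus depends on the 1 h levels themselves, and its shares are no independent check of the 1 h result. PNLDC1, NECAB2 and ARHGAP25 were among the called genes that this filter left out. The scaling moves this background: 46.1% of all calls at 1 h were higher on the deposited scale, 57.8% after quantile normalization and 68.4% after scaling to the total of listed genes. After quantile normalization 16 of the 38 (42.1%) were called higher, against 23.7% of all tested genes, and after total scaling 17 (44.7%), against 30.2%. Under both, 5 of the 38 were lower, against 17.3% of tested genes after quantile normalization and 14.0% after total scaling.

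In regular cells at 1 h, 17 of the 38 genes averaged more than 1 CPM, and 37 of the 38 averaged less in regular cells at 7 h than at 1 h, with TEX19 the exception. The order treated 7 h, treated 1 h, regular 1 h, regular 7 h, from the highest mean down, was found in 23 genes. Of the 38, 37 averaged more in treated cells at 7 h than at 1 h, with PCGF2 the exception. These counts share libraries with the choice of the genes, which favours low regular and high treated values at 7 h, and are given as a description. The same pair of thresholds applied to treated over regular cells at 1 h selected 8 genes before any was left out by name, beside the 44 of the 7 h choice. With the 7 h groups exchanged they selected 8, and regular cells at 1 h over regular cells at 7 h selected 9.

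**Figure D1:**
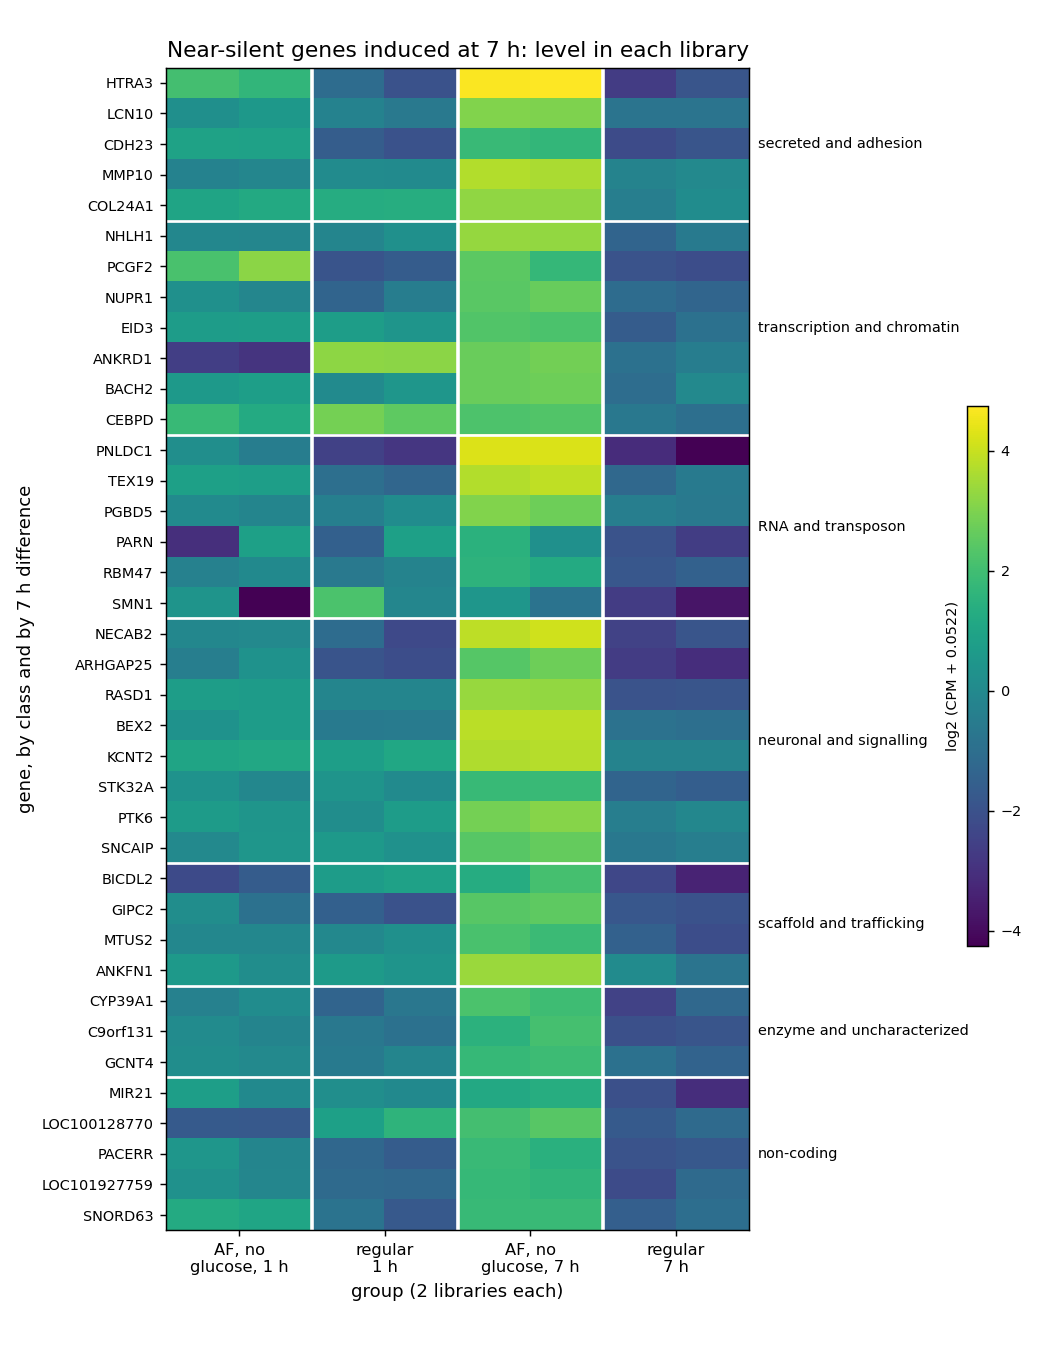
Level of each of the 38 genes (rows, sorted by class and by 7 h difference) in each of the 8 libraries (columns, 2 per group), as log2 of CPM plus the prior of 0.0522 CPM on a colour scale. The 7 h treated columns are the brightest for 33 genes, and ANKRD1, CEBPD, LOC100128770 and BICDL2 are brighter in regular than in treated cells at 1 h.

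PNLDC1, HTRA3, NECAB2 and BEX2 had the 4 highest mean levels in treated cells at 7 h. PNLDC1 (Entrez 154197, chr6:159799455-159820704, plus strand) encodes a nuclease that trims the ends of precursors of piRNAs, the small RNAs that silence transposons in animal germ cells. It stood at 1.10 and 0.681 CPM in treated cells at 1 h against 0.122 and 0.0885 CPM in regular cells. At 7 h PNLDC1 had 19.1 and 18.8 CPM in treated cells against 0.0626 and 0 CPM in regular cells, a log2 difference of 7.94. The 7 h treated libraries thus held 1034 reads of PNLDC1 and the 7 h regular libraries 3, a ratio of 589 once scaled for library size (95% interval 201 to 2860, counting error only). At 1 h PNLDC1 was higher in treated cells by 2.55 on the log2 scale (SE 0.38, limma adjusted p = 2.21e-05), with both treated libraries above both regular ones.

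HTRA3 (Entrez 94031, chr4:8269754-8307098, plus strand) encodes a secreted serine protease of the HtrA family. It had the highest level of the 38, with 25.9 and 26.9 CPM in treated cells at 7 h against 0.104 and 0.221 CPM in regular cells at 7 h, a log2 difference of 7.00. It stood at 4.11 and 3.16 CPM in treated cells at 1 h against 0.426 and 0.199 CPM in regular cells, and the 1 h log2 fold change was 3.40 (SE 0.29, limma adjusted p = 1.13e-08). Of its family, HTRA1 had 184 and 180 CPM in treated cells at 7 h against 138 and 145 CPM in regular cells, a log2 fold change of 0.36, and HTRA2 one of -0.03. Neither HTRA1 nor HTRA2 passed the test at 1 h (log2 fold changes of -0.02 and -0.01).

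NECAB2 (Entrez 54550, chr16:83965177-84002776, plus strand) encodes a neuronal calcium-binding protein. Its level was 14.4 and 17.1 CPM in treated cells at 7 h against 0.125 and 0.221 CPM in regular cells at 7 h, a log2 difference of 6.16. At 1 h it had 0.890 and 0.926 CPM in treated cells against 0.426 and 0.155 CPM in regular cells, higher by 1.61 on the log2 scale (SE 0.34, limma adjusted p = 0.000838). Both paralogs were in the table. NECAB1 was lower in treated cells at 1 h by a log2 fold change of -1.11 (limma adjusted p = 0.000388) and showed -0.13 at 7 h. NECAB3 was higher at 1 h by 0.19 (limma adjusted p = 0.0293). At 7 h NECAB3 had 31.2 and 30.9 CPM in treated cells against 13.5 and 15.3 CPM in regular cells, a difference of 1.11 in the same direction as NECAB2.

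BEX2 (Entrez 84707, chrX:103309346-103310990, minus strand) is a brain-expressed gene of the X chromosome. It had 14.2 CPM in both treated libraries at 7 h against 0.501 and 0.463 CPM in regular cells at 7 h, a log2 difference of 4.74. At 1 h it stood at 1.21 and 1.58 CPM in treated cells against 0.638 and 0.641 CPM in regular cells, higher by 1.05 on the log2 scale (SE 0.21, limma adjusted p = 0.000417). Of the BEX and TCEAL family, which lies clustered on the same chromosome, 8 of 15 genes were in the table. Of the 8, 2 were higher at 1 h, BEX2 and TCEAL9 (log2 fold change 0.35), and none was lower. Of all tested genes 17.7% were higher at 1 h and 20.7% were lower. TCEAL9 was not near silent, at 384 and 375 CPM in treated cells at 7 h against 53.0 and 55.4 CPM in regular cells. BEX3 had 87.3 and 84.3 CPM in treated cells at 7 h against 78.7 and 80.1 CPM in regular cells.

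Per kilobase of exon, the 7 h treated level was 51.1 CPM per kb for SNORD63 and 32.8 for MIR21. These are short genes of 68 and 72 bases within longer ones, so their values cannot be compared with those of longer genes. Among the other genes BEX2 came first with 12.1 CPM per kb, followed by 8.60 for PNLDC1, 7.94 for HTRA3, 7.20 for TEX19, 7.13 for MMP10, 6.25 for NECAB2 and 5.77 for RASD1. BEX2 thus stood above HTRA3, the reverse of their order in CPM.

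**Figure D2:**
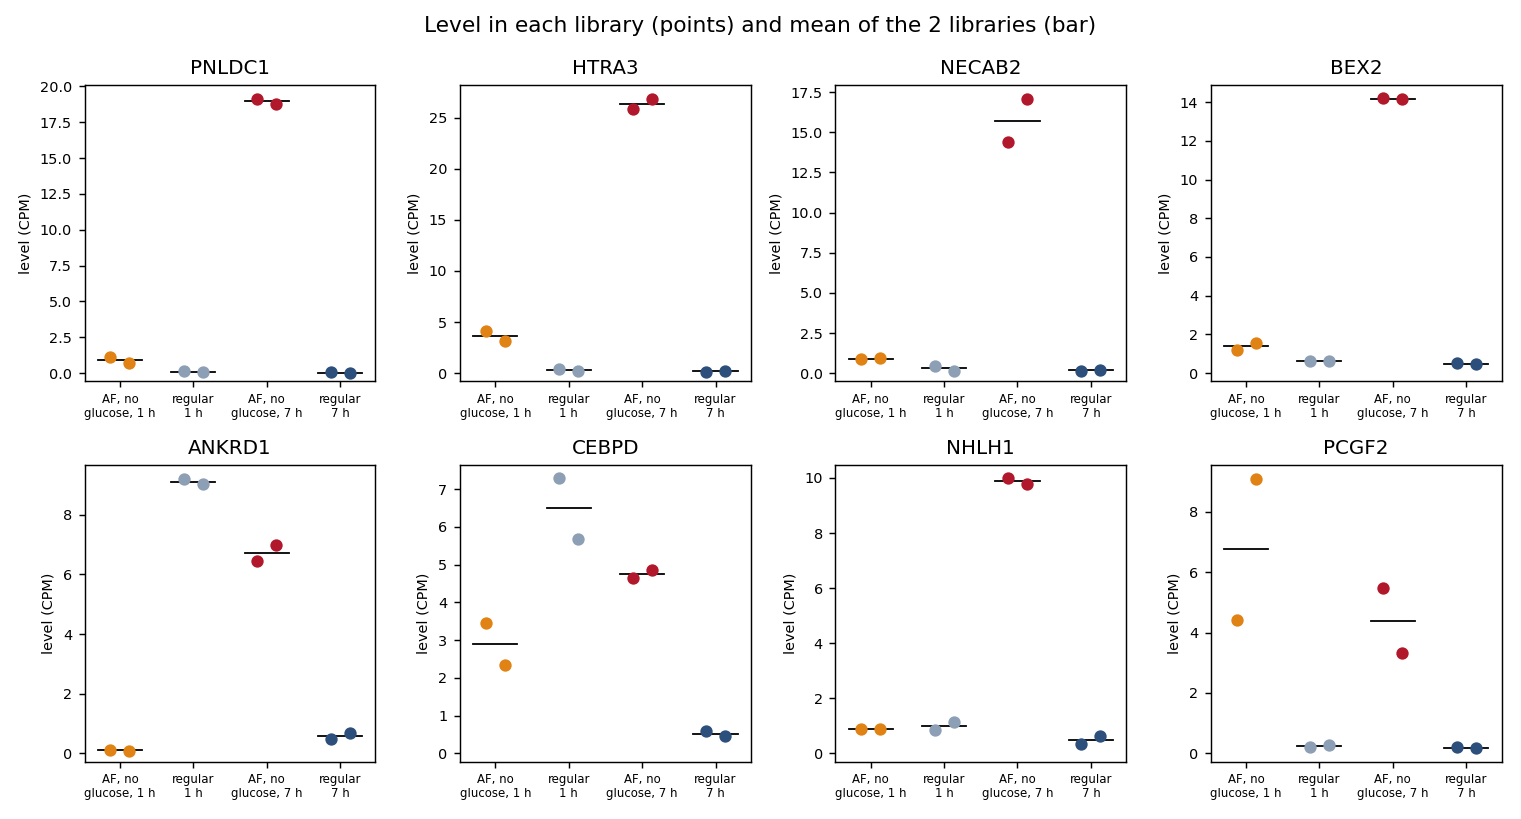
Level in CPM (linear axis from near 0) of 8 genes in each library (points) with the mean of the 2 libraries of a group (bar), groups in the order treated 1 h, regular 1 h, treated 7 h, regular 7 h. PNLDC1, HTRA3, NECAB2, BEX2 and NHLH1 are high in treated cells at 7 h alone, PCGF2 in treated cells at both times, and ANKRD1 and CEBPD in regular cells at 1 h as well.

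The bases before an annotated start are shown for PNLDC1, HTRA3 and BEX2, as 3 of the genes above. They are shown for MMP10 and BACH2 because a searched motif fell there. They are from RefSeq on GRCh38.p14, written 5′ to 3′ on the strand of the gene. The windows are chr6:159800026-159800248 (plus strand) for PNLDC1, chr4:8269504-8269753 (plus strand) for HTRA3 and chrX:103311047-103311240 (minus strand) for BEX2. They are chr11:102780629-102780878 (minus strand) for MMP10 and chr6:90296909-90297093 (minus strand) for BACH2, each up to 250 bases before the start without bases that any annotated exon covers. The PNLDC1 window lies inside the gene span given above, which begins at chr6:159799455. It therefore precedes an annotated start within the gene and not the beginning of that span. Capitals mark the AP-1 motif TGANTCA in MMP10 and the cyclic AMP response motif TGACGTCA in BACH2, and no searched motif was found in the other windows.
PNLDC1: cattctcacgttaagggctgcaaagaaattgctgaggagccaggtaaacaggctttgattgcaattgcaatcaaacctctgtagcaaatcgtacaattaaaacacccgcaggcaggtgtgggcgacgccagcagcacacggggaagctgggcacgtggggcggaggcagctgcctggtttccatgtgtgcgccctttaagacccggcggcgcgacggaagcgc
HTRA3: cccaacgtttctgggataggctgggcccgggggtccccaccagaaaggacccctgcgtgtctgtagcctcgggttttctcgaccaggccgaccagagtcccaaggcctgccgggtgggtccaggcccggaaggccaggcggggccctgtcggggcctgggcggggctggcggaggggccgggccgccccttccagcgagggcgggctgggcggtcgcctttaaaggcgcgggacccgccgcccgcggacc
BEX2: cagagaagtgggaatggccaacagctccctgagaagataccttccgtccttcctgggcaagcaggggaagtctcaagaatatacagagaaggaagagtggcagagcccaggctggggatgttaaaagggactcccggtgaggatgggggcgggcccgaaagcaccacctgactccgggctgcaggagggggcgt
MMP10: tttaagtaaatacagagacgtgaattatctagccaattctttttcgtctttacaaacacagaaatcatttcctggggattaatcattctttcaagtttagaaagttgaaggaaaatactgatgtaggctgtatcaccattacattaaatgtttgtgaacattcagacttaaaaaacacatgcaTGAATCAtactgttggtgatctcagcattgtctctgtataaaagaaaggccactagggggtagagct
BACH2: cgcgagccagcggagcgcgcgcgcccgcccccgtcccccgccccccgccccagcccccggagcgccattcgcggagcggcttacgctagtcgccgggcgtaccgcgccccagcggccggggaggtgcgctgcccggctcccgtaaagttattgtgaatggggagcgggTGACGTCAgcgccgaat

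RefSeq gave 36 promoter windows of 300 bases, 250 before the start and 50 after it, for 26 of the 38 genes. On either strand, the AP-1 motif TGANTCA stood in 3 of the 36 windows (8.33%), against 7.71% of all 35116 promoter windows: those of MMP10 at 67 bases before the start, ANKRD1 at 195 and LOC101927759 at 89. The antioxidant response motif TGACNNNGC stood in 5 windows (13.9%), against 13.3% of all. The motif TGATGNAA of ATF and CCAAT-enhancer-binding proteins stood in 1 (KCNT2, 2.78% against 3.62%), and TGACGTCA in 1 (BACH2 at 82 bases before the start, 2.78% against 1.85%). A heat shock element of 3 units was found in none, against 0.490% of all windows. Over the 15284 windows of listed genes the shares were 5.17% for AP-1, 14.4% for the antioxidant motif, 2.00% for TGATGNAA, 2.84% for TGACGTCA and 0.321% for the heat shock element. The median GC content of the 250 bases before the start was 60.4% over the 36 windows of these 26 genes, against 58.0% for all windows and 64.4% for those of listed genes.

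Among the 5 secreted and adhesion genes, 3 were higher at 1 h (HTRA3, CDH23 and LCN10), none was lower and 2 did not pass. CDH23, the cadherin of the tip links of inner ear hair cells, had 1.87 and 1.82 CPM in treated cells at 1 h against 0.274 and 0.199 CPM in regular cells, higher by 2.73 in log2 (SE 0.29, limma adjusted p = 3.1e-07). At 7 h CDH23 stood at 3.57 and 3.22 CPM in treated cells against 0.167 and 0.221 CPM in regular cells. Its treated libraries at 1 h thus already lay above all 4 regular libraries. LCN10, of the lipocalin family, showed 1.12 and 1.39 CPM in treated cells at 1 h against 0.790 and 0.597 CPM in regular cells (log2 fold change 0.81, SE 0.22, limma adjusted p = 0.00714). LCN10 lost this call without treated library B (0.66, limma adjusted p = 0.0893) or regular library B (0.62, limma adjusted p = 0.0711). At 7 h LCN10 had 8.22 and 7.98 CPM in treated cells against 0.522 and 0.530 CPM in regular cells.

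MMP10, a matrix metalloproteinase that is a well-known AP-1 target, did not pass at 1 h, with 0.776 and 0.872 CPM in treated cells against 1.00 and 0.973 CPM in regular cells (log2 fold change -0.25). At 7 h it stood at 13.1 and 12.0 CPM in treated cells against 0.793 and 0.927 CPM in regular cells, a log2 difference of 3.79. COL24A1, a minor fibrillar collagen chain, had 1.94 and 2.29 CPM in treated cells at 1 h against 2.43 and 2.52 CPM in regular cells (log2 fold change -0.23, not passed). At 7 h COL24A1 reached 9.55 and 9.51 CPM in treated cells against 0.710 and 1.04 CPM in regular cells, and one of its regular libraries thus lay above 1 CPM. MMP10 and COL24A1 had treated libraries below regular ones at 1 h and above them at 7 h.

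Of the 7 transcription and chromatin genes, 2 were higher at 1 h (PCGF2 and NUPR1), 2 were lower (ANKRD1 and CEBPD) and 3 did not pass. PCGF2 (Entrez 7703, chr17:38733898-38749792, minus strand), a subunit of Polycomb repressive complexes, had the largest 1 h rise of the 38. It stood at 4.43 and 9.10 CPM in treated cells against 0.213 and 0.265 CPM in regular cells, a log2 fold change of 4.46 (SE 0.31, limma adjusted p = 6.68e-10). At 7 h it stood at 5.46 and 3.32 CPM in treated cells against 0.209 and 0.177 CPM in regular cells. The treated libraries of PCGF2 differed from each other at both times, and the ranges at 1 h and 7 h overlapped. NUPR1, a stress-induced chromatin protein, had 1.14 and 0.872 CPM in treated cells at 1 h against 0.334 and 0.686 CPM in regular cells (log2 fold change 0.98, SE 0.30, limma adjusted p = 0.0137). NUPR1 lost this call without treated library A (0.79, limma adjusted p = 0.125) or regular library A (0.51, limma adjusted p = 0.228). At 7 h NUPR1 had 5.42 and 6.26 CPM in treated cells against 0.417 and 0.353 CPM in regular cells.

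ANKRD1 (Entrez 27063, chr10:90912096-90921087, minus strand), a nuclear ankyrin-repeat protein and a standard target gene of YAP and TAZ, stood lower in treated cells at 1 h and higher at 7 h. It was listed at 0.114 and 0.0817 CPM in treated cells at 1 h against 9.21 and 9.02 CPM in regular cells, a log2 fold change of -5.94 (SE 0.22, limma adjusted p = 3.32e-14), the largest fall of the 38. At 7 h it stood at 6.45 and 6.99 CPM in treated cells against 0.480 and 0.684 CPM in regular cells, a log2 difference of 3.43. Its 7 h treated level did not reach that of regular cells at 1 h in either library. CEBPD, an acute-phase transcription factor, had 3.45 and 2.34 CPM in treated cells at 1 h against 7.29 and 5.68 CPM in regular cells (log2 fold change -1.17, SE 0.19, limma adjusted p = 8.19e-05). At 7 h CEBPD had 4.65 and 4.85 CPM in treated cells against 0.584 and 0.463 CPM in regular cells. Its 7 h treated level, too, lay below that of regular cells at 1 h.

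NHLH1, a basic helix-loop-helix factor of developing neurons, reached 9.98 and 9.77 CPM in treated cells at 7 h against 0.334 and 0.618 CPM in regular cells, the highest 7 h treated level of this class. At 1 h it had 0.890 and 0.872 CPM in treated cells and 0.851 and 1.15 CPM in regular cells, which overlapped (log2 fold change -0.16). BACH2, a repressor that binds antioxidant-type motifs and is known from lymphocytes, had 6.41 and 6.77 CPM in treated cells at 7 h against 0.438 and 0.927 CPM in regular cells. At 1 h BACH2 had 1.44 and 1.66 CPM in treated cells against 0.973 and 1.35 CPM in regular cells (log2 fold change 0.42, not passed). EID3, a member of a family of inhibitors of differentiation, had 4.91 and 4.50 CPM in treated cells at 7 h against 0.271 and 0.485 CPM in regular cells. At 1 h EID3 had 1.60 and 1.63 CPM in treated cells and 1.64 and 1.30 CPM in regular cells, which overlapped.

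Of the 6 RNA and transposon genes, 2 were higher at 1 h (PNLDC1 and TEX19), 1 was lower (SMN1) and 3 did not pass. TEX19, which restrains retrotransposons in mouse germ cells, had 1.76 and 1.66 CPM in treated cells at 1 h against 0.456 and 0.354 CPM in regular cells, higher by 1.95 on the log2 scale (SE 0.24, limma adjusted p = 1.97e-06). At 7 h it stood at 13.0 and 14.9 CPM in treated cells against 0.376 and 0.640 CPM in regular cells. PGBD5, a domesticated transposase, had 8.26 and 6.70 CPM in treated cells at 7 h against 0.710 and 0.596 CPM in regular cells, with a 1 h log2 fold change of 0.06. RBM47, an RNA-binding cofactor of RNA editing, had 2.93 and 2.33 CPM in treated cells at 7 h against 0.230 and 0.309 CPM in regular cells, with a 1 h log2 fold change of 0.27. Neither PGBD5 nor RBM47 passed at 1 h, where their groups overlapped.

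PARN and SMN1 are housekeeping genes that almost every cell uses, and their low values here set them apart. PARN, a poly(A)-removing nuclease related to PNLDC1, was listed at 0.0685 and 1.74 CPM in treated cells at 1 h against 0.304 and 1.75 CPM in regular cells. At 7 h PARN was at 2.80 and 1.15 CPM in treated cells against 0.209 and 0.110 CPM in regular cells. SMN1 serves the assembly of splicing particles and has a near-identical copy that can share its reads. It was listed at 1.28 and 0 CPM in treated cells at 1 h against 4.59 and 0.863 CPM in regular cells. At 7 h SMN1 was at 1.33 and 0.511 CPM in treated cells against 0.104 and 0.0221 CPM in regular cells. PARN did not pass at 1 h (log2 fold change -0.78, limma adjusted p = 0.509), but the value was -2.73 without treated library B (limma adjusted p = 0.00977) and 1.17 without treated library A (limma adjusted p = 0.223). PARN and SMN1 were the only members whose 7 h treated libraries differed by more than 1 on the log2 scale (1.25 for PARN and 1.30 for SMN1), against a median gap of 0.15 over the 38. The 1 h call of SMN1 (log2 fold change -2.97, SE 0.98, limma adjusted p = 0.0213) came from groups that overlapped. It was lost without treated library B (-0.63, limma adjusted p = 0.585) or regular library A (-1.80, limma adjusted p = 0.286). The values of SMN1 are uncertain for these reasons.

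Of the 21 genes fixed as a piRNA pathway list, 6 were in the table, 2 of them PNLDC1 and PARN. At 1 h PNLDC1 was higher and MYBL1, the germ-cell regulator of piRNA precursor genes, was lower (log2 fold change -0.44, limma adjusted p = 3.25e-06), and 4 did not pass. At 7 h MYBL1 had 20.9 and 19.5 CPM in treated cells against 54.2 and 56.0 CPM in regular cells, and TDRD7 16.2 and 14.9 CPM in treated cells against 26.2 and 25.7 CPM in regular cells. TDRKH had 14.3 and 14.0 CPM in treated cells at 7 h against 18.1 CPM in both regular libraries, and PLD6 11.4 and 12.1 CPM in treated cells against 8.47 and 8.45 CPM in regular cells. The remaining pathway genes therefore gave 1 higher and 3 lower at 7 h, beside the 2 chosen ones. Of all tested genes 40.5% were higher and 41.1% lower at 7 h. Of 20 germ cell and cancer-testis markers 4 were in the table, 3 of them lower at 1 h (MAGEA1, MAGEA3 and MAGEA6), against 20.7% of all tested genes. These markers summed to 208 and 194 CPM in treated cells at 7 h against 196 and 201 CPM in regular cells. Within that sum SSX1 had 5.08 and 5.43 CPM in treated cells at 7 h against 1.48 and 1.94 CPM in regular cells, and MAGEA1 had 38.6 and 35.4 CPM in treated cells against 44.5 and 45.4 CPM in regular cells.

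Of the 8 neuronal and signalling genes, 4 were higher at 1 h (NECAB2, BEX2, ARHGAP25 and RASD1), none was lower and 4 did not pass. The shares over all tested genes were 17.7% higher and 20.7% lower. NECAB2 and ARHGAP25 reached the level needed for the test only through the 7 h treated libraries. ARHGAP25, a Rac-inactivating protein known from blood cells, had 0.708 and 1.20 CPM in treated cells at 1 h against 0.213 and 0.177 CPM in regular cells, higher by 1.98 on the log2 scale (SE 0.35, limma adjusted p = 0.00014). At 7 h it stood at 5.16 and 6.70 CPM in treated cells against 0.104 and 0.0662 CPM in regular cells, a log2 difference of 5.45. RASD1, a dexamethasone-induced small GTPase, had 1.64 and 1.55 CPM in treated cells at 1 h against 0.851 and 0.840 CPM in regular cells (log2 fold change 0.88, SE 0.21, limma adjusted p = 0.00286). At 7 h RASD1 had 10.3 and 9.83 CPM in treated cells against 0.209 and 0.221 CPM in regular cells. The 4 genes that were higher at 1 h also had the 4 largest 7 h log2 differences of the class, from 4.74 to 6.16. Those differences chose the genes, and a link to the 1 h calls was not tested.

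KCNT2, a sodium-activated potassium channel, had 12.7 and 13.5 CPM in treated cells at 7 h against 0.793 and 0.794 CPM in regular cells. At 1 h KCNT2 had 1.96 and 2.18 CPM in treated cells against 1.67 and 2.08 CPM in regular cells, which overlapped. PTK6, a tyrosine kinase of epithelia, had 7.27 and 8.68 CPM in treated cells at 7 h against 0.710 and 0.883 CPM in regular cells. SNCAIP, which binds alpha-synuclein, had 5.29 and 6.03 CPM in treated cells at 7 h against 0.584 and 0.706 CPM in regular cells. STK32A, a serine/threonine kinase, had 3.49 and 3.54 CPM in treated cells at 7 h against 0.334 and 0.287 CPM in regular cells. The 1 h log2 fold changes of PTK6, SNCAIP and STK32A were 0.13, -0.20 and -0.09, none of which passed. Of 20 neuron markers 10 were in the table. At 1 h 1 of them was higher and 2 were lower, against 17.7% and 20.7% of all tested genes. At 7 h 6 of the 10 were higher and 1 was lower (limma, adjusted p under 0.05), against 40.5% and 41.1% of all tested genes. GAD1 was the lower one, and SYP, NEFL and GAP43 did not pass. A rise at 7 h was not particular to neuron markers. Of 7 astrocyte and oligodendrocyte markers 5 were higher and 2 lower. Epithelial and muscle markers each had 2 of 3 higher and 1 lower. Among 4 germ cell and cancer-testis markers 1 was higher and 1 lower. The neuron markers summed to 1049 and 1037 CPM in treated cells at 7 h against 529 and 517 CPM in regular cells. The largest part of that sum was TUBB3, with 663 and 650 CPM in treated cells at 7 h against 332 and 325 CPM in regular cells. The part of a broader neuronal pattern in the class was not tested.

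Of the 4 scaffold and trafficking genes, GIPC2 was higher at 1 h, BICDL2 was lower and 2 did not pass. GIPC2, a PDZ-domain adaptor, had 1.07 and 0.490 CPM in treated cells at 1 h against 0.304 and 0.199 CPM in regular cells (log2 fold change 1.38, SE 0.35, limma adjusted p = 0.00385). GIPC2 lost this call without treated library A (0.86, limma adjusted p = 0.120). At 7 h GIPC2 had 5.21 and 5.65 CPM in treated cells against 0.230 and 0.199 CPM in regular cells. BICDL2, an adaptor of the family that links cargo to dynein, had 0.160 and 0.272 CPM in treated cells at 1 h against 1.61 and 1.81 CPM in regular cells (log2 fold change -2.75, SE 0.39, limma adjusted p = 1.22e-05). At 7 h BICDL2 reached 2.45 and 4.18 CPM in treated cells against 0.146 and 0.0441 CPM in regular cells. ANKFN1 had 10.5 and 10.3 CPM in treated cells at 7 h against 1.00 and 0.530 CPM in regular cells. MTUS2, a microtubule-associated protein, had 4.43 and 3.67 CPM in treated cells at 7 h against 0.313 and 0.177 CPM in regular cells. ANKFN1 and MTUS2 did not pass at 1 h, with log2 fold changes of -0.16 and -0.19.

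None of the 3 enzyme and uncharacterized genes passed at 1 h. CYP39A1, an oxysterol hydroxylase of bile acid synthesis, had 0.753 and 1.04 CPM in treated cells at 1 h against 0.334 and 0.575 CPM in regular cells (log2 fold change 0.93, limma adjusted p = 0.0571). At 7 h CYP39A1 had 4.52 and 3.80 CPM in treated cells against 0.125 and 0.375 CPM in regular cells. Without regular library B its 1 h value was 1.28 (limma adjusted p = 0.0341). C9orf131 had 2.84 and 4.18 CPM in treated cells at 7 h against 0.188 and 0.221 CPM in regular cells, with a 1 h log2 fold change of 0.72 (limma adjusted p = 0.0657). GCNT4, a branching enzyme of O-linked glycans, had 3.40 and 3.77 CPM in treated cells at 7 h against 0.480 and 0.331 CPM in regular cells, with a 1 h log2 fold change of 0.42.

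Of the 5 non-coding genes, 3 were higher at 1 h (SNORD63, PACERR and LOC101927759), LOC100128770 was lower and MIR21 did not pass. SNORD63, a small nucleolar RNA, had 2.31 and 1.99 CPM in treated cells at 1 h against 0.517 and 0.243 CPM in regular cells (log2 fold change 2.42, SE 0.30, limma adjusted p = 2.71e-06). At 7 h SNORD63 stood at 3.44 and 3.51 CPM in treated cells against 0.292 and 0.441 CPM in regular cells. It lies within HSPA9, and its reads were not separated from those of that gene. PACERR is transcribed opposite the prostaglandin synthase gene PTGS2 and starts 230 bases from it. It had 1.32 and 0.844 CPM in treated cells at 1 h against 0.365 and 0.265 CPM in regular cells (log2 fold change 1.61, SE 0.32, limma adjusted p = 0.00051). At 7 h PACERR had 3.53 and 2.68 CPM in treated cells against 0.209 and 0.243 CPM in regular cells. PTGS2 itself was lower at 1 h (log2 fold change -0.40, limma adjusted p = 9.13e-05) and had 189 and 197 CPM in treated cells at 7 h against 3.09 and 3.07 CPM in regular cells.

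LOC101927759 had 1.16 and 0.872 CPM in treated cells at 1 h against 0.395 and 0.376 CPM in regular cells (log2 fold change 1.28, SE 0.33, limma adjusted p = 0.005). LOC101927759 lost this call without treated library A (1.08, limma adjusted p = 0.0679). LOC100128770 had 0.251 and 0.245 CPM in treated cells at 1 h against 1.76 and 3.01 CPM in regular cells (log2 fold change -2.97, SE 0.30, limma adjusted p = 1.2e-07). At 7 h LOC100128770 reached 4.13 and 5.30 CPM in treated cells against 0.250 and 0.397 CPM in regular cells. It overlaps BICDL2 on the opposite strand, and both stood lower in treated cells at 1 h and higher at 7 h. The libraries do not mark strand, so reads in the overlap cannot be told apart. MIR21, the locus of an abundant microRNA, had 2.24 and 2.49 CPM in treated cells at 7 h against 0.188 and 0.0662 CPM in regular cells, and these reads are not a measure of the mature microRNA.

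**Figure D3:**
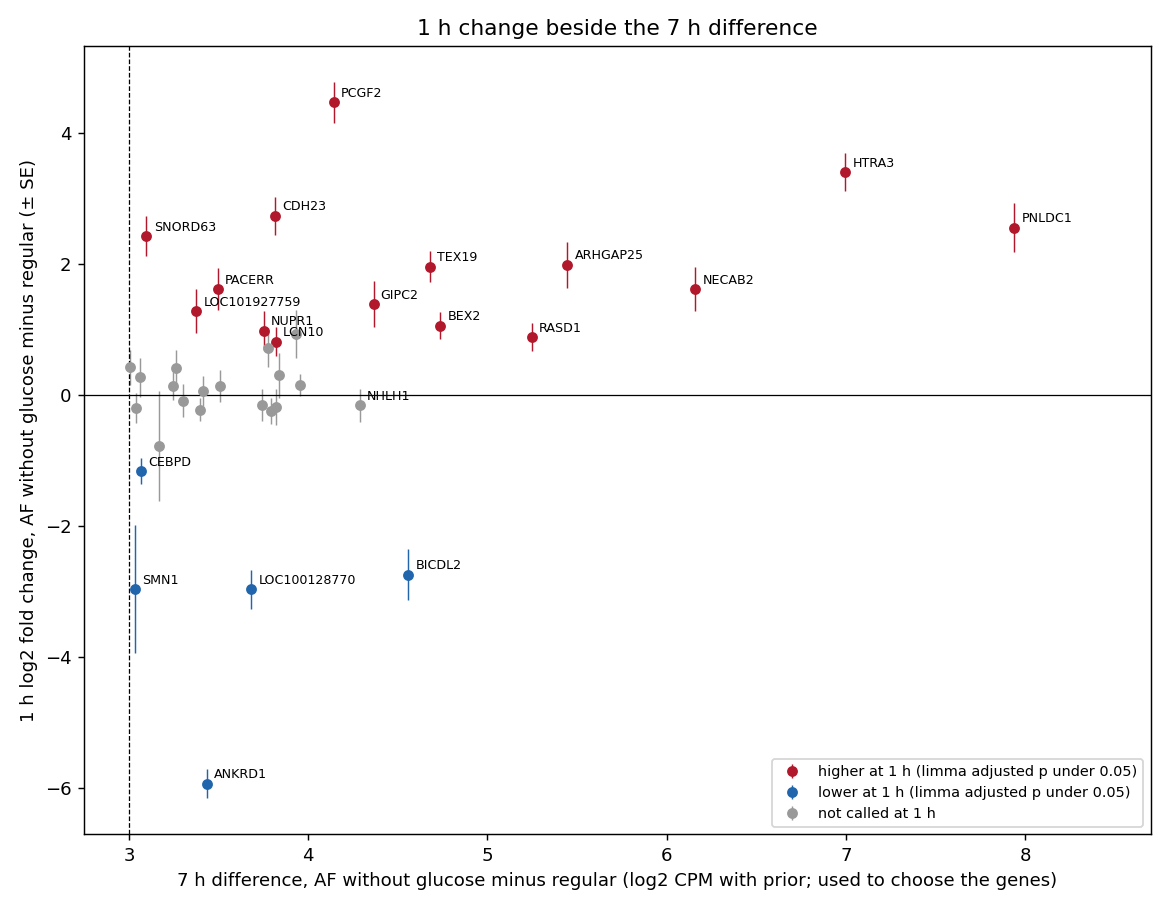
The tested 1 h log2 fold change with its SE (y axis) beside the 7 h log2 difference that chose the genes (x axis, the dashed line at 3 being the threshold), 1 point per gene. All 5 genes with a 7 h difference of at least 5 are among the 15 called higher at 1 h (red). Of these 5, PNLDC1, NECAB2 and ARHGAP25 reached the level needed for the test only through the 7 h treated libraries. The 5 called lower at 1 h (blue) lie below 5 on the x axis, as most of the genes do. A relation between the 2 axes was not tested.

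Position was a property that the choice of genes did not use, but the 7 h change of a neighbour comes from the libraries that chose them. Of the 38 genes, 17 had a listed gene upstream on the same strand that overlapped them or ended within 50 kb. Genes on the opposite strand were not counted, although the libraries do not mark strand. For 8 of the 38 (21.1%) such a neighbour was at least 2-fold higher in treated cells at 7 h. The same held for 3.55% of 12773 listed genes with a position and strand, and for 7.56% of 397 of them under the regular 7 h level. Both sets include the 38 genes. EID3, SNORD63, MIR21 and NECAB2 overlap the neighbour and may share its reads, so these shares are a description. Other windows were chosen after the data were seen. With 5 kb and 10 kb the count was 7 of 38 (18.4%), beside 0.799% and 1.34% of listed genes and 4.53% and 5.79% of those under the regular 7 h level. With 100 kb it was 8 of 38, beside 4.90% and 8.06%. At 1 h, 5 of these 8 genes were higher, 1 was lower and 2 did not pass, against 10, 4 and 16 of the other 30. Over all tested genes the 1 h shares were 17.7% higher and 20.7% lower. The split between the 8 and the 30 uses 7 h values, and its relation to the 1 h calls was not tested.

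For each pair the reads of the gene per 1000 reads of its neighbour are given as a description. PNLDC1 begins 1025 bases after MRPL18, a mitochondrial ribosomal protein gene, which had 321 and 311 CPM in treated cells at 7 h against 51.4 and 49.1 CPM in regular cells. PNLDC1 had 59.7 and 60.4 reads per 1000 of MRPL18 in treated cells at 7 h against 1.22 and 0 in regular cells. At 1 h the ratio was 16.2 and 9.75 in treated cells against 3.03 and 2.02 in regular cells. NECAB2 overlaps the end of OSGIN1, an oxidative stress gene, by 1156 bases, and had 60.9 and 66.4 reads per 1000 of OSGIN1 in treated cells at 7 h against 7.55 and 12.9 in regular cells. At 1 h the values of NECAB2 were 6.82 and 6.99 in treated cells against 15.8 and 5.60 in regular cells, which overlapped. For PNLDC1 and NECAB2 the ratio thus differed between treated and regular cells at 7 h, the time whose values chose the genes. The source of the reads was not tested.

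GIPC2 begins 27005 bases after DNAJB4, a heat shock co-chaperone gene with 405 and 432 CPM in treated cells at 7 h against 14.4 and 16.1 CPM in regular cells. It had 12.9 and 13.1 reads per 1000 of DNAJB4 in treated cells at 7 h against 15.9 and 12.4 in regular cells. At 1 h GIPC2 had 10.6 and 5.23 in treated cells against 15.6 and 11.6 in regular cells. The ratio of GIPC2 to DNAJB4 overlapped between the groups at 7 h, while the levels of both genes were higher in both treated libraries. EID3 lies within TXNRD1, the thioredoxin reductase gene, which had 2458 and 2488 CPM in treated cells at 7 h against 354 and 347 CPM in regular cells. EID3 had 2.00 and 1.81 reads per 1000 of it in treated cells at 7 h against 0.767 and 1.40 in regular cells. At 1 h EID3 had 3.89 and 3.83 reads per 1000 of TXNRD1 in treated cells against 4.09 and 3.20 in regular cells.

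SNORD63 lies within HSPA9, and had 0.958 and 0.982 reads per 1000 of HSPA9 in treated cells at 7 h against 0.508 and 0.766 in regular cells. At 1 h SNORD63 had 3.22 and 2.73 in treated cells against 0.913 and 0.416 in regular cells. LOC101927759 begins 4307 bases after NQO2 and had 88.9 and 73.9 reads per 1000 of it in treated cells at 7 h against 21.4 and 43.9 in regular cells. LOC100128770 begins 4730 bases after THOC6, with 92.0 and 119 in treated cells at 7 h against 16.1 and 24.2 in regular cells. MIR21 lies within VMP1, with 6.71 and 7.54 in treated cells at 7 h against 1.25 and 0.442 in regular cells. In these 4 pairs the 7 h ratio was higher in both treated libraries than in both regular ones. The choice required a 7 h log2 difference of at least 3, and that of HSPA9 was 2.64, NQO2 2.23, THOC6 1.48 and VMP1 1.15. A higher mean log2 ratio in treated cells at 7 h was thus fixed by the choice of genes. The same holds for PNLDC1 and EID3, whose neighbours MRPL18 and TXNRD1 had 2.65 and 2.82. HTRA3 begins 28650 bases after SH3TC1, which was not among the neighbours 2-fold higher at 7 h (log2 difference 0.75). Reads from overlapping genes were not separated here, and the part of the neighbours in the levels of these genes was not tested.

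**Figure D4:**
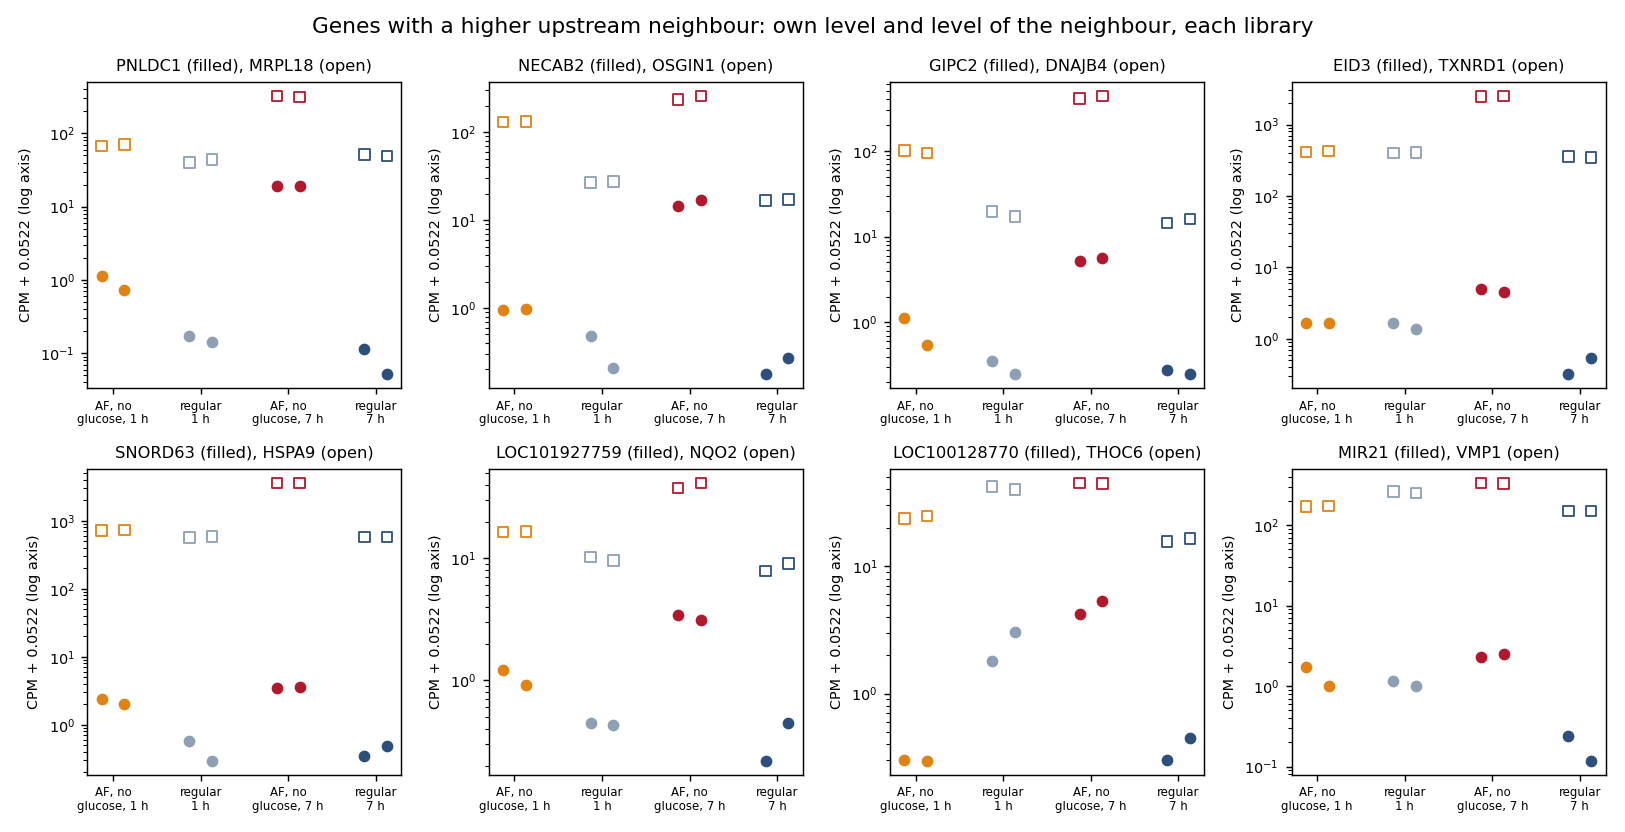
Level (CPM plus 0.0522, log axis) of the 8 genes with a neighbour at least 2-fold higher at 7 h (filled circles) and of that neighbour (open squares) in each library, groups in the order treated 1 h, regular 1 h, treated 7 h, regular 7 h. All 8 genes and their neighbours are higher in treated than in regular cells at 7 h, and the distance between circle and square on the log axis stays alike at 7 h for GIPC2 and narrows in treated cells for PNLDC1 and NECAB2.

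The thresholds of the choice cut through a continuous range. Just inside the 7 h difference lay GCNT4 at 3.01, SMN1 at 3.03 and SNCAIP at 3.04, and just outside it N4BP2L1 at 2.998, BBC3 at 2.91 and COL2A1 at 2.87. Just inside the regular 7 h level lay COL24A1 at 0.926 CPM with the prior, MMP10 at 0.912 and PTK6 at 0.848, and just outside it FRY at 1.02, HUNK at 1.07 and TRIM36 at 1.20. FRY, with 15.3 and 18.3 CPM in treated cells at 7 h against 1.00 and 0.927 CPM in regular cells, was left out by this margin alone.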

How the data were processed

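Per the labels' protocols, the RNA-seq libraries of LN229-TAZ(4SA) cells used SMART-Seq mRNA HT and Nextera XT kits, which do not mark strand. The submitters' processing notes name HISAT2, edgeR and the GRCh38 build. For their versions, for read counting and for the removal of low genes, the entry is: not given in the sources used here. Deposited values are log2 CPM with a prior, already scaled between libraries by the authors. A prior of 0.0522 CPM was read from the lowest value; without it, all values (100%) came out as whole reads to within 0.1 read. Levels are printed as CPM with the prior removed, log2 values with it included, which understates changes of low genes. A count test had been planned only in case the values were counts.

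Column headings name a group and no replicate, and 1 mean per group was fitted. Genes reaching 1 CPM in 2 or more libraries (13028, all 38 members among them) were tested with limma 3.58.1 in R 4.3.3 on the deposited log2 values, with an intensity trend, over all 8 libraries (4 residual and 14.5 prior degrees of freedom, median residual SD 0.0587), contrast treated minus regular at 1 h. A call is a Benjamini-Hochberg adjusted p under 0.05 over the whole table. The script was tested on simulated data with known changes.

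The members, classes and gene lists were chosen with earlier results of these data known. Named were PNLDC1, HTRA3, NECAB2 and BEX2, up to 5 members per class by 7 h treated level, up to 10 per direction by 1 h change among calls, the 4 with the least alike 7 h treated libraries, the 3 nearest each threshold on either side, and measured genes of the piRNA, HTRA, NECAB and BEX and TCEAL lists; the members beyond these, and PTGS2 and the upstream neighbours, were named after their values were seen. Exon lengths are from GENCODE 29, for 36 members, and positions and promoters from RefSeq, GRCh38.p14. Alternatives were other scalings, filters, priors and thresholds, no intensity trend, the 1 h libraries alone, each library left out, and voom weights on the recovered reads, the last chosen after seeing the data. Intervals and floors cover counting error only.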

Additional observations from a re-analysis of the deposited data

Results flagged for a closer look

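In 7 of the 38 genes both treated libraries lay below both regular libraries at 1 h and above both at 7 h. The opposite order at 1 h, both treated libraries above both regular ones, was found in 19 of the 38. The 7 h part rests on the values that chose the genes. With so few libraries per group the 1 h order can arise by chance, and its share over all genes is not given here. The difference between the times was not tested, because the 7 h difference chose the genes. The 1 h log2 fold changes were -5.94 for ANKRD1, -2.97 for LOC100128770, -2.75 for BICDL2 and -1.17 for CEBPD, all called lower by limma, and -0.25 for MMP10, -0.23 for COL24A1 and -0.19 for MTUS2, which did not pass. The largest contrast was that of ANKRD1, with 0.114 and 0.0817 CPM in treated cells at 1 h against 9.21 and 9.02 CPM in regular cells, and 6.45 and 6.99 CPM in treated cells at 7 h against 0.480 and 0.684 CPM in regular cells. BICDL2 and LOC100128770 overlap, so their reads are not independent.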

How the results depend on the processing

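No paired analysis was possible because the column headings carry no replicate numbers. The planned count tests (quasi-likelihood test under both scalings, and the negative binomial alternative) were not run, because the deposited unit is log2 CPM. Of the 38 genes, 8 were called higher at 1 h with at least 1 CPM required in 4 libraries, a filter that left 22 of the 38 in the test. These 8 passed that filter only with both treated libraries at 1 h, so it depends on the 1 h levels. With 1 library left out, 12 to 15 were called higher and 4 to 5 lower, PARN replacing SMN1 without treated library B. The remaining alternatives gave 15 to 17 higher and 4 to 5 lower. The choice of genes moved more: 8 genes were selected with a prior of 0.5 CPM, 78 with a difference of at least 2, 11 with at least 4, 24 with a regular mean below 0.5 CPM, 55 with one below 2 CPM, 28 after quantile normalization or total scaling, and 36 to 38 with 1 library left out. Over the 38 genes and 440 alternatives, 407 single 1 h results kept their direction and call, 10 lost the call, 9 gained it and 14, none of them called, changed sign. The sign changes were PGBD5 at -0.033 after quantile normalization and, with 1 library left out, PARN (range -2.73 to 1.17), PGBD5 (-0.18 to 0.30), NHLH1 (-0.37 to 0.047), KCNT2 (-0.0072 to 0.30), EID3 (-0.022 to 0.30), ANKFN1 (-0.38 to 0.063), MIR21 (-0.093 to 0.68), PTK6 (-0.14 to 0.41), SNCAIP (-0.45 to 0.043) and STK32A (-0.30 to 0.11). NUPR1 (0.98, adjusted p = 0.0568) and SMN1 (-2.97, adjusted p = 0.212) also lost the call in limma without the intensity trend. CYP39A1 gained a call in 5, C9orf131 in 3 and PARN in 1. The 7 h differences fell by a median of 1.01 on the log2 scale with the larger prior and by 0.30 under total scaling, which moved the median of all genes to -0.32. Depth limits the low levels: a gene's 7 h regular level rests on 3 to 81 reads, its 1 h levels on 8 to 528 in treated and 8 to 711 in regular cells.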
